A study of Mus musculus with 6 samples.

Results

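The Myc, Max and Mxd network is a family of paired transcription factors, and its messenger RNAs were measured here in mouse sarcoma cells that lacked Dicer and in cells that kept 1 copy of it. The members were Myc, Mycn, Mycl, Max, Mxd1, Mxd3, Mxd4, Mnt and Mlx. They were taken as every probe set (a group of array probes against 1 transcript) whose annotation names exactly 1 of these 9 genes, which gave 22 of 45037 probe sets and 9 of 18193 named genes. This rule uses no measured value, but the members were chosen with earlier results of these data known. Of the 22, 17 had a mean log2 value of at least 3 over the arrays and were tested, and each of the 9 genes had at least 1 of them. The 5 others, from Mycl (2 probe sets), Mxd1, Mxd4 and Mnt (1 each), lay between 1.68 and 2.93 on every array and were not tested.

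Total RNA from 6 samples was hybridised to Affymetrix 3′ expression arrays, 3 of them Dicer null and 3 Dicer heterozygous. All 6 came from sarcoma cell lines of strain C57BL6/J, grown to confluence in serum-containing medium. Mature microRNAs are cut from their precursors by the ribonuclease Dicer, and the comparison asks which transcripts differ when it is missing. Values are log2 GCRMA values, a background-corrected and quantile-normalised measure on which 1 unit is a 2-fold difference. The levels of different probe sets cannot be set against each other. The labels give no Cre driver, no deleted exons and no tumour model, and they do not say whether the 3 samples of a group were separate lines or separate cultures. The p-values therefore measure the spread between these samples, which may be technical, and 3 arrays per group limit the precision.

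Myc proteins bind DNA only as pairs with Max, at the sequence CACGTG, known as the E-box, and there they activate transcription. The Mxd proteins and Mnt take the place of Myc in the pair with Max, bind the same sequence and repress it by bringing in Sin3 and histone deacetylases. Mlx is a relative of Max that pairs with some Mxd proteins, with Mnt and with the glucose-sensing Mondo proteins. In fibroblasts and their tumours Myc is known for driving ribosome production, metabolism and entry into the cell cycle. The microRNA families let-7 and miR-34, both products of Dicer, have been reported to repress MYC in human cells.

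The mature forms of those microRNAs are shown because Dicer cuts them from their precursors, with the seed (bases 2 to 8, which pair with a target) in capitals. The sequences are from RefSeq, build GRCm38.p6, written 5′ to 3′. The let-7 seed is shared by 11 mature mouse microRNA names in that table and the miR-34a seed by 4.
mmu-let-7a-5p: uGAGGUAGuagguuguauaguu
mmu-miR-98-5p: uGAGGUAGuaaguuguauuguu
mmu-miR-34a-5p: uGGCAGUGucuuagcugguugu
The let-7a and miR-98 sequences have the same seed and differ outside it, while that of miR-34a is another. The arrays did not measure mature microRNAs, and target sites in the members' transcripts were not analysed here.

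The E-box itself occurs in the promoters of some members, so these genes carry the sequence that their own proteins bind. In windows of 300 bases (250 before to 50 after the start of the gene), 4 of the 8 members with a window held CACGTG, which reads the same on both strands. Myc itself had no window, so this count does not cover it. Among all 27025 genes with a window 2187 (8.09%) held it in at least 1, and among all 32851 windows 2349 (7.15%). The members with it were Mlx, Max, Mnt and Mxd4, and the windows of Mycn, Mycl, Mxd1 and Mxd3 did not hold these letters. Each stretch of 46 bases is from RefSeq, build GRCm38.p6, read 5′ to 3′ on the gene's strand, with the E-box in capitals.
Mlx, chr11:101087230-101087275, plus strand: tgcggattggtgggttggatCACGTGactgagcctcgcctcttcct
Max, chr12:76962226-76962271, minus strand: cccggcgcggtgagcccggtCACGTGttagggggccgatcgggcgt
Mnt, chr11:74830781-74830826, plus strand: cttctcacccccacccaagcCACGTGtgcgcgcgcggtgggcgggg
Mxd4, chr5:34187904-34187949, minus strand: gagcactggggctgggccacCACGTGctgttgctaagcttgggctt
The first base of the E-box lay 40 bases before the start in Mlx, 3 in Max, 123 in Mnt and 219 in Mxd4. A match of letters is a description and does not show binding. Of the 1108 tested genes with CACGTG in a window, 14 (1.26%) were higher and 21 (1.90%) lower in Dicer null arrays at an adjusted p under 0.05. Of the 8179 tested genes with windows that lack it, 119 (1.45%) were higher and 160 (1.96%) lower. The median log2 differences of these sets were 0.01 and -0.02.

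Before the members' values, the arrays themselves can be described in short. Correlations between arrays were 0.988 to 0.991 within the null group, 0.972 to 0.988 within the heterozygous group and 0.963 to 0.981 between the groups. Dicer1, the targeted gene, gave 8.56, 8.40 and 8.42 in null arrays and 8.60, 8.19 and 8.17 in heterozygous arrays (log2 difference 0.14, limma adjusted p = 0.693), and its other probe set had an adjusted p of 0.573. The sources used here do not say whether either probe set lies in the deleted part, and one outside it checks nothing, so whether these values bear on the labels was not settled. Of 12 mesenchymal markers 11 were tested, with Vim at 13.71 to 13.75 in null and 13.75 to 13.84 in heterozygous arrays. Of those 11, 4 were positive (36.4%), against 48.7% of all tested genes, and 0 passed, with a median log2 difference of -0.17. At an unadjusted p under 0.05, 1 was higher and 4 were lower in null arrays. Such a p, in either direction, was found for 24.0% of all tested genes. The smallest p was that of S100a4, a calcium-binding protein, with 11.36, 10.97 and 11.73 in null arrays and 12.33, 12.81 and 13.03 in heterozygous arrays (log2 difference -1.37, limma adjusted p = 0.0570). Thy1 was below the minimum. The leukocyte marker Ptprc (1.58 to 1.62 in null, 1.55 to 1.57 in heterozygous arrays) and the endothelial marker Pecam1 (1.93 to 2.09 in null, 1.77 to 1.97 in heterozygous arrays) lay at low values. Of 11 leukocyte markers with a probe set 2 were tested, of 8 endothelial markers 0, of 8 epithelial markers 3 and of 8 skeletal muscle markers 2. Cd68, the leukocyte marker with the smaller p, gave 5.30, 4.43 and 5.84 in null arrays and 7.13, 5.24 and 5.30 in heterozygous arrays. Its log2 difference was -0.70 (limma adjusted p = 0.535). Cd14 gave 6.74, 6.71 and 7.45 in null arrays and 7.29, 7.06 and 7.22 in heterozygous arrays (log2 difference -0.22, limma adjusted p = 0.628). Heterozygous replicate 1 stood apart in the summed linear level of the epithelial list, at 562, where null arrays had 50.5 to 131 and the remaining heterozygous ones 34.7 and 35.6. That sum came mostly from 1 gene, Krt18, singled out after its values were seen, at 9.02 on that array, where null arrays had 2.0 to 2.68 and the remaining heterozygous ones 2.09 and 2.17. It also did so in the skeletal muscle list, mostly through Acta1 (7.75, also singled out), at 271, where null arrays had 62.4 to 70.7 and the remaining heterozygous ones 40.7 and 50.3. Myh3, the muscle marker with the smaller p, gave 2.76, 2.80 and 3.13 in null arrays and 4.27, 2.81 and 2.41 in heterozygous arrays. Its log2 difference was -0.27 (limma adjusted p = 0.782), and its mean of 3.03 lay close to the minimum of 3. The tight-junction gene Ocln was the 1 epithelial marker that passed (log2 difference 3.23, limma adjusted p = 0.0356). It gave 4.11, 5.81 and 3.97 in null arrays and 1.69, 1.27 and 1.25 in heterozygous arrays. Its mean over the 6 arrays was 3.02, against the minimum of 3, so it was tested only through its high null values. The heterozygous values lay below that minimum, and its other probe set, at a mean of 2.77, was not tested. A filter passed through 1 group favours such a call, so no conclusion was drawn from it. The Ocln call held without null replicate 2 (limma adjusted p = 0.0451). It was lost without any 1 of null replicates 1 and 3 and heterozygous replicates 1, 2 and 3 (limma adjusted p up to 0.107). In such bulk samples fewer cells of a kind and less RNA per cell cannot be told apart.

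None of the 17 tested probe sets of the network passed an adjusted p of 0.05 in limma. The p-values were adjusted by the Benjamini-Hochberg method over the whole table of 24385 tested probe sets, and 3.10% of these passed. At an unadjusted p under 0.05 the members numbered 5 of 17 (29.4%), against 23.2% of all tested probe sets. Those 5 were both probe sets of Mlx and both tested ones of Mxd1, higher in null arrays, and 1 of Mycl, lower. Counted in either direction, the groups did not overlap in 4 of 17 (23.5%), against 30.9% of all tested probe sets. This share and that at an unadjusted p lie near those of all probe sets. All 3 null values lay above in each of the 4, the probe sets of Mlx and Mxd1, and in 3967 of all 24385 tested probe sets. The median log2 difference of the 17 was 0.09, against 0.03 for all tested probe sets. Of the 17, 11 were positive (64.7%), against 52.4% of all tested probe sets. The 95% interval of the difference lay within 2-fold either way for 11 of the 17, and that of the other 6 reached past it.

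**Figure D1:**
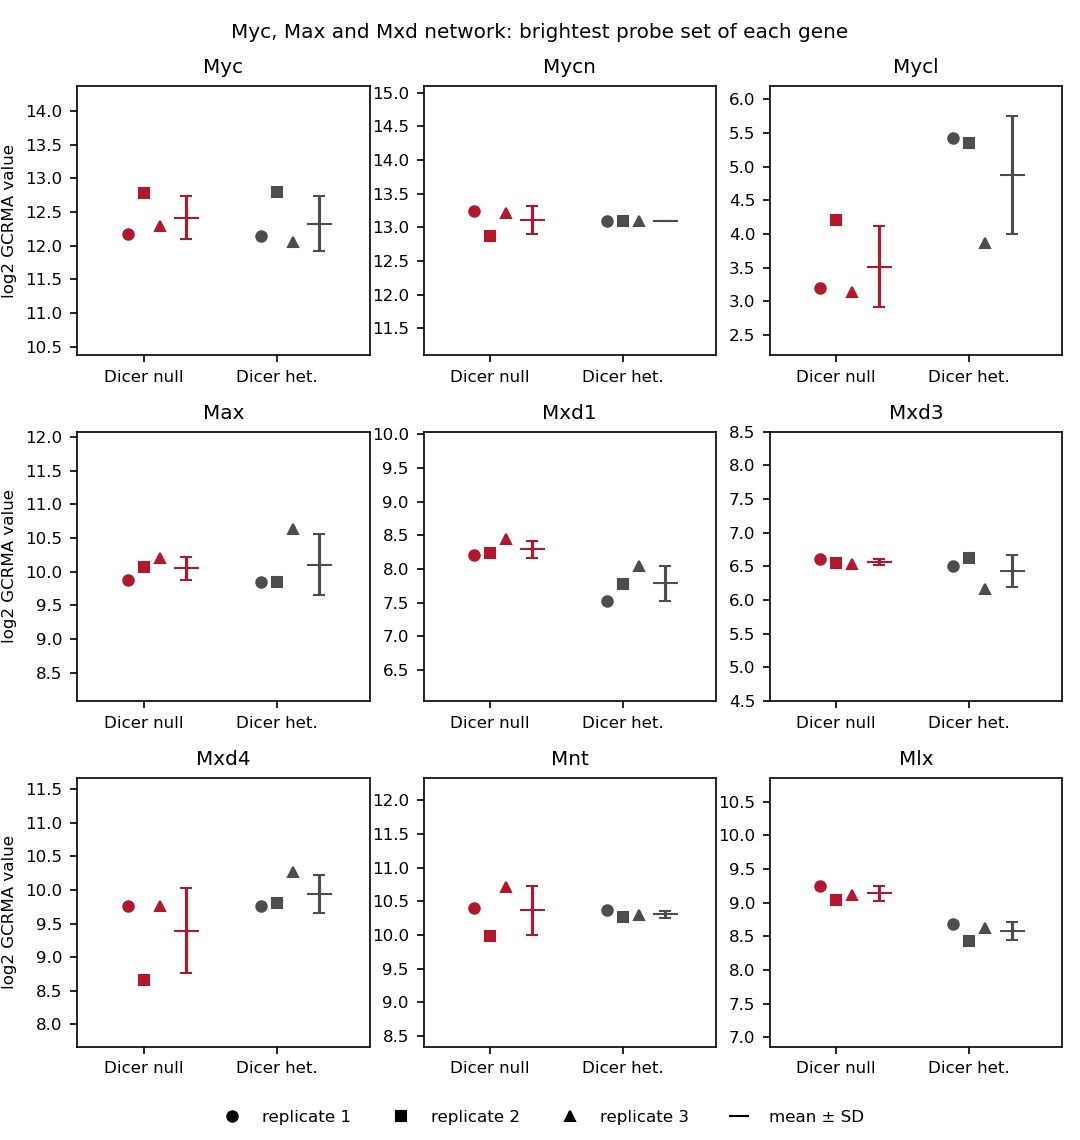
Log2 GCRMA values (y axis) of the brightest tested probe set of each of the 9 members, with the 3 Dicer null arrays in red on the left and the 3 Dicer heterozygous arrays in grey on the right of each panel. Markers give the replicate, the bar is the mean ± SD, and each panel spans 4 log2 units. The groups separate in the panels of Mxd1 and Mlx and overlap in the other 7.

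Among the activators, Myc, the founding member, gave 12.18, 12.78 and 12.29 in null arrays and 12.14, 12.79 and 12.05 in heterozygous arrays. The groups overlapped, and replicate 2 was the highest array of each. The log2 difference was 0.09 (SE 0.28, limma adjusted p = 0.876), and its 95% interval ran from 0.670-fold to 1.69-fold. Mycn, the paralog known from neuroblastoma and embryonic tissues, had 13.24, 12.87 and 13.21 in null arrays and 13.09, 13.10 and 13.10 in heterozygous arrays at its brightest probe set (log2 difference 0.01, SE 0.17, limma adjusted p = 0.982). The null values lay on both sides of the heterozygous ones. Another Mycn probe set varied more than any other member's, with 4.76, 6.67 and 5.02 in null and 3.09, 4.66 and 5.75 in heterozygous arrays (log2 difference 0.98, limma adjusted p = 0.502, and 0.28 to 1.61 with 1 array left out). Its SD was 1.04 in null and 1.34 in heterozygous arrays, so it does not settle the direction. The third Mycn probe set lay between 3.87 and 4.11 on all arrays (log2 difference -0.08, limma adjusted p = 0.787). It derives from the same sequence record as the brightest one, which had a mean of 13.1. Which of the Mycn probe sets follows the transcript best was not tested.

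Mycl, the paralog known from small cell lung cancer, was dim in both groups. Its tested probe set gave 3.20, 4.21 and 3.14 in null arrays and 5.42, 5.36 and 3.87 in heterozygous arrays. Null replicate 2 lay above heterozygous replicate 3, so the groups overlapped, and the other heterozygous arrays were above all null ones. The log2 difference was -1.37 (SE 0.51, 95% interval -2.60 to -0.13), a ratio of 0.388 null over heterozygous that did not pass (limma adjusted p = 0.182). Differences at levels this close to the minimum of 3 can depend on the background model of GCRMA, and no other background model was tested here.

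Max, the obligate partner of the Myc proteins, gave 9.87, 10.07 and 10.21 in null arrays and 9.84, 9.85 and 10.63 in heterozygous arrays. Heterozygous replicate 3 was the highest of the 6, and the remaining 5 lay within a narrow range. The log2 difference was -0.06 (SE 0.26, limma adjusted p = 0.923).

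Among the repressors, Mxd1, which rises as many cell types differentiate, had higher values in null arrays at both tested probe sets, without passing the adjusted threshold. The brighter one gave 8.20, 8.23 and 8.44 in null arrays and 7.52, 7.78 and 8.05 in heterozygous arrays (log2 difference 0.51, SE 0.20, 1.42-fold, limma adjusted p = 0.192). The other gave 8.01, 7.78 and 7.87 in null arrays and 7.49, 7.58 and 7.11 in heterozygous arrays (log2 difference 0.49, SE 0.19, 1.41-fold, limma adjusted p = 0.190). The groups did not overlap at either, and both probe sets derive from the same sequence record, so they are not independent measurements.

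Mxd3, the member known from proliferating cells, had 6.61, 6.55 and 6.53 in null arrays and 6.51, 6.63 and 6.17 in heterozygous arrays at its brightest probe set (log2 difference 0.13, limma adjusted p = 0.716). The groups overlapped, with heterozygous replicate 3 the lowest. Its other tested probe sets had log2 differences of 0.43 and 0.22 and also overlapped (limma adjusted p = 0.367 and 0.566). Without heterozygous replicate 3 they were 0.20 and 0.06. Mxd4 gave 9.76, 8.66 and 9.76 in null arrays and 9.76, 9.80 and 10.27 in heterozygous arrays (log2 difference -0.55, limma adjusted p = 0.396). Null replicate 2 stood below the other arrays there, and without it the difference was -0.18. The same array was lowest at the second Mxd4 probe set, with 5.55, 4.35 and 5.40 in null and 5.44, 5.41 and 5.79 in heterozygous arrays (log2 difference -0.45, limma adjusted p = 0.486), and without it the difference was -0.07. The third Mxd4 probe set had a log2 difference of -0.24 (limma adjusted p = 0.664), which was -0.02 without heterozygous replicate 1 and -0.49 without heterozygous replicate 3. Mnt, the most widely expressed antagonist of Myc, gave 10.40, 9.99 and 10.71 in null arrays and 10.37, 10.27 and 10.29 in heterozygous arrays. The null values lay on both sides of the heterozygous ones (log2 difference 0.06, limma adjusted p = 0.904).

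Mlx, the partner of the Mondo proteins, had the smallest p-values of the network. Its brighter probe set gave 9.25, 9.04 and 9.12 in null arrays and 8.69, 8.43 and 8.62 in heterozygous arrays. The other gave 6.27, 6.05 and 6.65 in null arrays and 5.13, 5.38 and 5.94 in heterozygous arrays. Every null array lay above every heterozygous one at both. The log2 differences were 0.56 (SE 0.16, 95% interval 0.17 to 0.95, 1.47-fold) and 0.84 (SE 0.28, 1.79-fold). Neither passed the threshold, with limma adjusted p-values of 0.114 and 0.144. With the arrays weighted by how well each followed the fit, both Mlx probe sets passed (limma adjusted p = 0.0307 and 0.0325) and so did that of Mycl (adjusted p = 0.0254), while 0 members passed in each of the other 15 alternatives. That weighting gave heterozygous replicate 3 a weight of 0.341 and heterozygous replicate 2 a weight of 2.89.

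**Figure D2:**
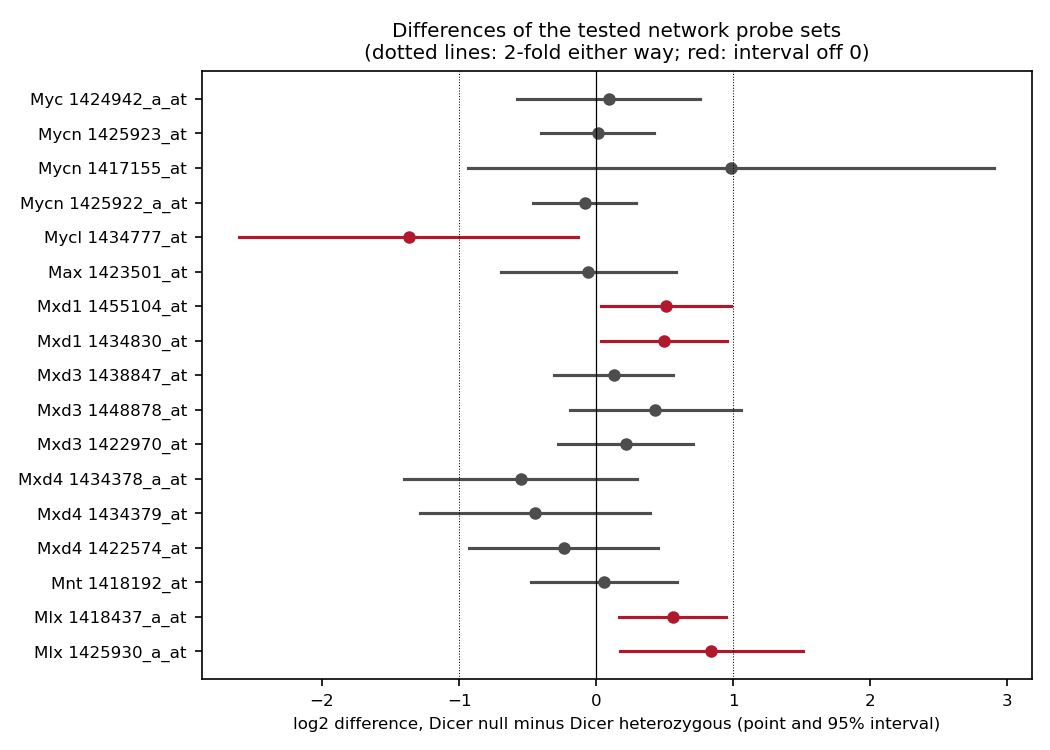
Log2 difference (x axis), Dicer null minus Dicer heterozygous, of the 17 tested probe sets of the network, with points at the estimate and lines over the 95% interval from limma. Dotted lines mark 2-fold either way. The intervals of both Mlx and both Mxd1 probe sets lie above 0 and that of Mycl lies below it, all before adjustment for multiple tests, and the other 12 cover 0.

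The plot of differences shows how unequal the precision is: the interval of the brightest Mycn probe set is narrow around 0, while that of the most variable one runs from -0.94 to 2.90. Of the 9 genes, 5 had more than 1 tested probe set. The probe sets of Mycn differed in sign, and those of Mxd1, Mxd3, Mxd4 and Mlx each had the same sign within the gene. Some probe sets of Mycn, Mxd1, Mxd3 and Mxd4 share a sequence record and are not independent measurements.

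Genes close to the 9 members were 8, namely further members and partners of the network and other E-box factors. Of these 7 were tested and 0 passed, where 3.46% of the 11425 tested genes did. Mxi1, the remaining Mxd repressor, gave 11.11, 11.20 and 11.31 in null arrays and 11.00, 11.44 and 11.37 in heterozygous arrays (log2 difference -0.06, limma adjusted p = 0.868). Mga, a large repressor that pairs with Max, had a log2 difference of 0.25 at its brightest probe set (limma adjusted p = 0.448). A dimmer Mga probe set gave 5.15, 5.70 and 5.38 in null arrays and 4.12, 5.03 and 4.33 in heterozygous arrays, which do not overlap (log2 difference 0.92, limma adjusted p = 0.135). Its remaining tested probe sets overlapped and differed in sign, with log2 differences of 0.63 and -0.31 (limma adjusted p = 0.405 and 0.519). Mlxip, which encodes the Mondo protein MondoA, had a log2 difference of 0.30 (limma adjusted p = 0.514), or 0.07 without heterozygous replicate 3, and Mlxipl, which encodes ChREBP, lay between 0.95 and 1.59 on every array. Zbtb17, the Myc partner Miz1 in gene repression, had a log2 difference of -0.57 (limma adjusted p = 0.554), which was -0.15 without heterozygous replicate 1 and -1.02 without heterozygous replicate 3. Tfap4, an E-box factor that Myc activates, gave 6.17, 7.49 and 6.32 in null arrays and 4.95, 6.05 and 5.48 in heterozygous arrays. All 3 null arrays lay above (log2 difference 1.17, SE 0.44, limma adjusted p = 0.186), and without null replicate 2 the difference was 0.75. Usf1 and Usf2, E-box factors outside the network, had log2 differences of -0.08 and -0.37 (limma adjusted p = 0.828 and 0.270). At that Usf2 probe set all 3 null arrays lay below, with 9.44, 9.31 and 9.25 against 9.88, 9.76 and 9.47. Its other probe set overlapped (log2 difference -0.10, limma adjusted p = 0.777).

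The proteins that work with the network were described next, at the brightest tested probe set of each gene. Of 13 tested coactivators of Myc 0 passed, with a median log2 difference of 0.18 against -0.01 for all tested genes. That median was 0.03 without heterozygous replicate 3, 0.10 without null replicate 2 and 0.29 without heterozygous replicate 2. The smallest p was that of Actl6a, a subunit of chromatin remodelling complexes (log2 difference 0.997, limma adjusted p = 0.0895). Its dimmer tested probe sets differed in sign, with log2 differences of 0.72 and -0.12 (limma adjusted p = 0.177 and 0.872). Of 11 tested corepressors of Mxd and Mnt 0 passed, with a median of 0.11 (0.08 to 0.16 with 1 array left out). The smallest p was that of Ing2, a Sin3 complex subunit (log2 difference 0.59, limma adjusted p = 0.155).

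Among 16 tested genes whose products control the stability of the Myc protein, 2 passed, both higher in null arrays, against the 3.46% of all tested genes. The median log2 difference was 0.29. The 2 were Fbxw7 and Skp2, the substrate-binding F-box subunits of ubiquitin ligases that bind Myc. Fbxw7 gave 9.99, 10.38 and 10.05 in null arrays and 8.98, 9.0 and 9.16 in heterozygous arrays. All null arrays lay above, by 2.13-fold (log2 difference 1.09, SE 0.18, limma adjusted p = 0.0377), and its other probe set rose 2.80-fold (limma adjusted p = 0.0272). Both Fbxw7 probe sets derive from the same sequence record, so they are not independent measurements. Skp2, which also marks the cell cycle inhibitor p27 for degradation, gave 10.93, 11.43 and 11.05 in null arrays and 9.81, 9.93 and 9.26 in heterozygous arrays. The rise was 2.77-fold (log2 difference 1.47, SE 0.25, limma adjusted p = 0.0408). Of its 5 tested probe sets 4 passed, with ratios of 2.70 to 4.78 over the 5. Both calls held without heterozygous replicate 3 (limma adjusted p = 0.0458 for Fbxw7 and 0.0461 for Skp2). They were lost when any 1 of the other 5 arrays was left out, null replicates 1, 2 and 3 and heterozygous replicates 1 and 2, with limma adjusted p-values up to 0.127 and 0.136. The log2 differences then lay between 0.97 and 1.17 for Fbxw7 and between 1.32 and 1.6 for Skp2. Aurka and Plk1 are in this list and in the proliferation list, and without them the median was 0.17.

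**Figure D3:**
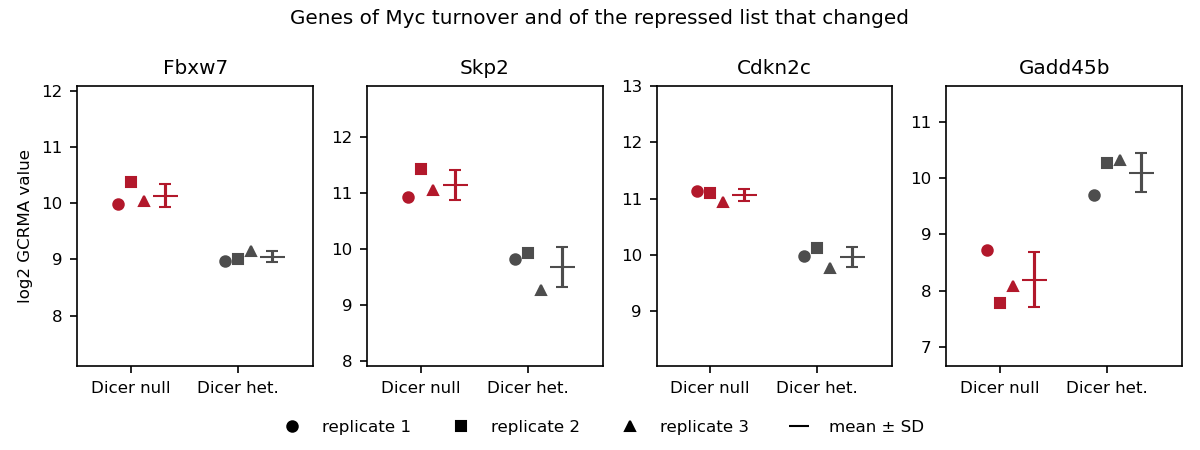
Log2 GCRMA values (y axis) of Fbxw7, Skp2, Cdkn2c and Gadd45b at the brightest probe set, with the 3 Dicer null arrays in red on the left and the 3 Dicer heterozygous arrays in grey on the right of each panel. Markers give the replicate, the bar is the mean ± SD, and each panel spans 5 log2 units. The null arrays lie above all heterozygous arrays for Fbxw7, Skp2 and Cdkn2c and below them for Gadd45b.

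Genes known to be activated by Myc were divided by function. Of 30 tested genes of the nucleolus and ribosome production 0 passed and 17 were positive (56.7%), against 48.7% of all tested genes. Their median log2 difference was 0.11. The smallest p was that of Polr1a, the largest subunit of RNA polymerase I (log2 difference 0.81, limma adjusted p = 0.232), with groups that overlapped. At its dimmer tested probe sets all null arrays lay above, with log2 differences of 0.70 and 1.03 (limma adjusted p = 0.199 and 0.106). The direction of the median rested on single arrays: it was -0.03 without null replicate 2 and -0.04 without heterozygous replicate 3. Of 27 tested genes of growth and metabolism 0 passed, with a median of 0.11, which was 0.03 without either of these arrays. The smallest p was that of Hk2, which phosphorylates glucose (log2 difference 0.70, limma adjusted p = 0.133).

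Of 13 tested cell cycle targets 0 passed and 11 were positive (84.6%), against 48.7% of all tested genes. Their median log2 difference was 0.38. E2f2, a transcription factor of S-phase entry, gave 4.99, 6.62 and 6.13 in null arrays and 3.94, 3.62 and 2.75 in heterozygous arrays. The groups did not overlap (log2 difference 2.48, SE 0.50, limma adjusted p = 0.0564). Of these 13 genes 6 are also in the proliferation list, and the other 7 had a median of 0.35. In that list 30 of 30 tested genes were positive and 0 passed, with a median log2 difference of 0.67. Its smallest p was that of Cdc6, a DNA replication licensing factor (log2 difference 1.30, limma adjusted p = 0.0570). The arrays differed in this list: its median deviation from each gene's mean was 0.20, 0.59 and 0.18 in null arrays and -0.07, 0.04 and -0.92 in heterozygous arrays. Heterozygous replicate 3 was far below the others, and without it the median difference was 0.37 with 29 of 30 positive, while that of the cell cycle targets was 0.19. For the members whose groups did not overlap, the log2 differences without this array were 0.58 and 1.07 for Mlx and 0.64 and 0.35 for Mxd1, each the brighter probe set first, and none passed (limma adjusted p = 0.132, 0.0748, 0.116 and 0.261). The part of proliferation itself in the members' values was not tested.

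Of 20 tested genes listed as repressed by Myc, 2 passed, 1 higher and 1 lower in null arrays, against 3.46% of all tested genes. The median log2 difference was -0.14. The direction of this median rested on 1 array, since it was 0.01 without null replicate 2, with 10 of 20 positive. It stayed negative without any other array, at -0.02 without heterozygous replicate 3 and -0.085 to -0.174 without each of the rest. Cdkn2c, the cell cycle inhibitor p18, gave 11.14, 11.10 and 10.94 in null arrays and 9.98, 10.12 and 9.76 in heterozygous arrays. It rose 2.15-fold (log2 difference 1.11, SE 0.17, limma adjusted p = 0.0339). Gadd45b, a stress response gene, gave 8.73, 7.77 and 8.08 in null arrays and 9.70, 10.27 and 10.33 in heterozygous arrays. All null arrays lay below, by 3.75-fold (log2 difference -1.91, SE 0.31, limma adjusted p = 0.0382), and 3 of its 3 tested probe sets passed. The call on Cdkn2c held without heterozygous replicate 3 (limma adjusted p = 0.0458), and that on Gadd45b without heterozygous replicate 1 (limma adjusted p = 0.0465). Each was lost when any 1 of the other 5 arrays was left out, with limma adjusted p-values up to 0.115 and 0.139. Of the 20 genes 4 are also mesenchymal markers (Col1a1, Col1a2, Col3a1 and Pdgfrb), and the summed linear level of all mesenchymal markers was 49736 to 64226 in null and 61470 to 78858 in heterozygous arrays. The part of these markers in the list's median was not tested. Without those 4 genes the median was also -0.14.

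Of 15 tested targets of Mlx and the Mondo proteins 0 passed, with a median log2 difference of 0.09 (0.05 to 0.18 with 1 array left out, the highest without heterozygous replicate 1). The smallest p was that of Irs2, an adaptor of the insulin receptor, which gave 8.48, 8.07 and 8.72 in null arrays and 7.17, 7.45 and 6.79 in heterozygous arrays (log2 difference 1.29, SE 0.26, limma adjusted p = 0.0556). Txnip and Arrdc4, the arrestin-family genes best known as Mondo targets, are given although they were picked after their values were seen. Txnip had 12.07, 11.86 and 12.12 in null arrays and 11.99, 11.35 and 11.62 in heterozygous arrays (log2 difference 0.36, limma adjusted p = 0.360). Arrdc4 had 7.63, 10.21 and 3.51 in null arrays and 7.96, 9.63 and 8.45 in heterozygous arrays (log2 difference -1.56, limma adjusted p = 0.605). Both overlapped between the groups, and null replicate 3 alone set the low mean of Arrdc4.

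**Figure D4:**
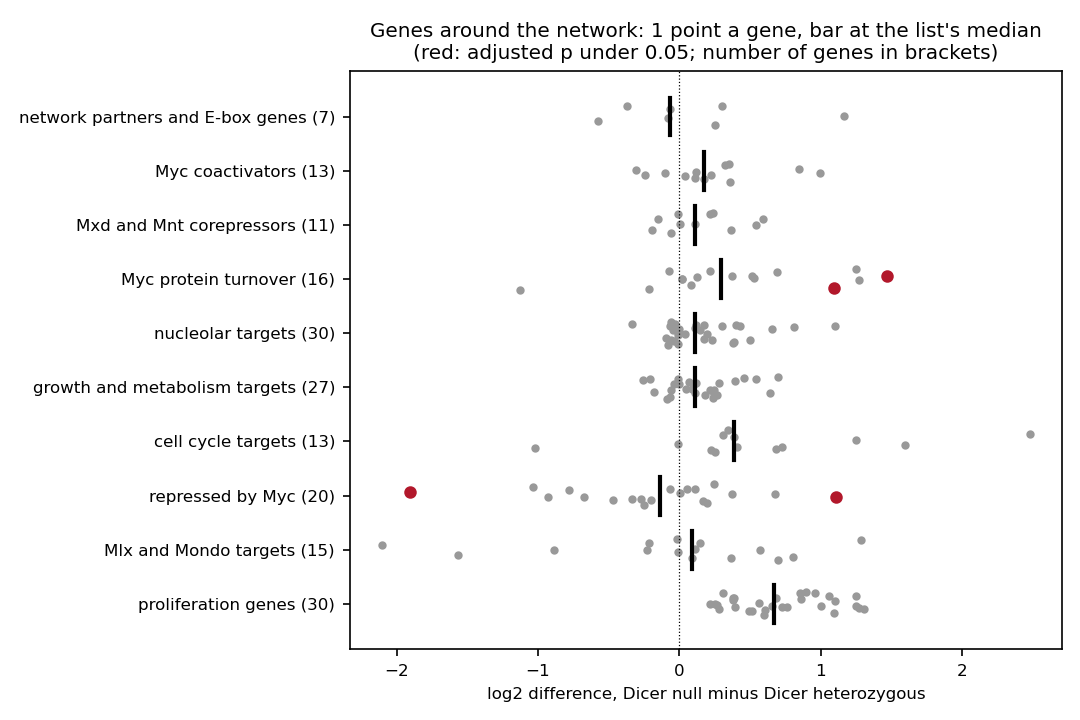
Log2 difference (x axis), Dicer null minus Dicer heterozygous, of each tested gene in 10 lists around the network, with a black bar at each list's median and genes at an adjusted p under 0.05 in red. The 4 red genes are Fbxw7 and Skp2 in the turnover list and Cdkn2c and Gadd45b in the repressed list. The proliferation list lies wholly above 0.

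The plot of the lists shows that the nucleolar and the growth and metabolism targets gathered near 0, at a median of 0.11 each, while the cell cycle and proliferation genes reached further to the right. The genes most like Myc over the 6 arrays, by Pearson correlation with its probe set among 11424 genes, were Spc24 (r = 0.975), Dus4l (0.970), Dkc1 (0.957), Csnk1e (0.956) and Ldlrad3 (0.955). These are the highest of many correlations over 6 arrays and are given as a description. Spc24, a kinetochore subunit, had 8.19, 8.44 and 8.20 in null arrays and 8.11, 8.38 and 8.13 in heterozygous arrays. As for Myc, replicate 2 was the highest array of each group. Dkc1, which encodes a protein of small nucleolar RNA complexes and is also in the nucleolar list, had 12.33, 12.81 and 12.29 in null arrays and 12.30, 12.64 and 12.17 in heterozygous arrays, in the same pattern.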

How the data were processed

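RNA of 6 samples was measured, 3 Dicer null and 3 Dicer heterozygous, grouped by their titles. In the authors' deposited table each probe set has log2 values, from 0.40 to 14.18, made with R 2.11.1 and GCRMA 2.20.0 per the submitters' processing notes. The sources used here do not give its settings. GCRMA corrects background, normalises quantiles between arrays, which removes any overall shift in RNA amount, and summarises probes. The platform annotation names 1 symbol for 34945 probe sets, several for 932 and none for 9160, and genes were named from the first kind. No probe set names a member among several symbols.

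Probe sets with a mean of at least 3 over the 6 arrays were fitted with limma 3.58.1 in R 4.3.3 (lmFit and eBayes, no block, two-sided, Benjamini-Hochberg over all 24385 tested probe sets, 0.05). The script was tested on simulated data. A gene in a list was taken at its brightest tested probe set. Members and lists were chosen with earlier results of these data known, and the lists come from general knowledge. Named genes were all members and the genes close to them, up to 4 called genes of each list or else the one with the smallest p, the 5 most correlated with Myc, and Dicer1. Alternatives were other minimums, trend and robust moderation, repeated quantile normalization, centring, ordinary t statistics, array weights, a replicate block, another choice of probe set and each array left out. Sequences are from RefSeq, GRCm38.p6. Figures were drawn with matplotlib 3.10.9.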

Additional observations from a re-analysis of the deposited data

How the results depend on the processing

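The count of members past the threshold was 0 in 15 of 16 alternatives and 3 with array weights (Mlx at both probe sets and Mycl), and the members at an unadjusted p under 0.05 numbered between 1 and 5. Over all probe sets the count of 756 was 2949 with array weights, 116 with the replicate block, 0 with ordinary t statistics (4873 at an unadjusted p under 0.05) and 45 to 857 with 1 array left out. The 4 changed genes of the lists became 11 with array weights, 7 with a trend in the prior variance, 0 with ordinary t statistics, 0 with the replicate block and 0 to 3 with 1 array left out. The groups share replicate numbers, but same-numbered arrays deviated together with correlations of -0.06, 0.11 and 0.24, so the numbers were not taken as pairs. Signs turned for 8 of the named probe sets, none of which passed with all arrays at equal weight. With array weights Myc was -0.27, Max 0.12 and Mxd3 at its brightest probe set -0.0027, and with centred arrays Max was 0.01 and Mxi1 0.0033. With 1 array left out the log2 difference ran from -0.092 to 0.32 for Myc, -0.057 to 0.13 for the brightest Mycn probe set, -0.19 to 0.21 for Max, -0.0067 to 0.22 for the brightest Mxd3 probe set, -0.12 to 0.25 for Mnt, -0.20 to 0.022 for Mxi1, -0.19 to 0.062 for Usf1 and -0.64 to 0.29 for the muscle marker Myh3. The cause was not tested. Whether low signal over background limits Mycl and the dim probe sets of Mycn, Mxd3 and Mxd4 was not tested. The 3 arrays per group limit the precision of all members.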
